A study of Arabidopsis thaliana with 12 samples.

Results

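AT-HF, AT5G10920, CBL, APS4 and AT2G35390 are 5 nuclear genes of *Arabidopsis thaliana* whose enzymes make amino acids, activate sulfate or supply nucleotide synthesis. They were taken by name from the 691 genes that have an array probe assigned to them alone by the platform annotation, each has 1 such probe, and no probe assigned to several genes lists any of them. The array held 3439 probes, of which 692 were assigned to 1 gene. Total RNA was measured in 12 samples of wild-type plants of ecotype Columbia 0, 6 controls grown in light at 80 µE and 6 recovery samples, from plants moved from 80 µE to a light stress of 1000 µE for 1 h and then put back at 80 µE. The time back in growth light is 2 h in the sample titles and 1 h in the source names, which was not resolved, and the labels give no plant age, organ, pooling of plants or time of day. Time of sampling and light treatment cannot be told apart.

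Phosphoribosyl pyrophosphate (PRPP) synthase, encoded by AT2G35390, makes the activated ribose from which purines, pyrimidines and histidine are built. AT-HF (AT4G26900, also HISN4) encodes imidazole glycerol phosphate synthase, which closes the imidazole ring of histidine and releases an intermediate that returns to purine synthesis. AT5G10920 encodes argininosuccinate lyase, the enzyme that splits argininosuccinate into arginine and fumarate as the last step of arginine synthesis. CBL (AT3G57050) encodes cystathionine beta-lyase, which turns cystathionine into homocysteine, the precursor of methionine, and APS4 (AT5G43780) encodes an ATP sulfurylase, which couples sulfate to ATP at the entry to sulfate assimilation. In leaves these pathways run largely in the chloroplast, which supplies them with carbon skeletons, ATP and reducing power.

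After high light and recovery, the transcripts of the histidine and arginine enzymes were lower than in control plants. AT-HF was 3.82-fold and AT5G10920 2.31-fold higher in control than in recovery samples, and both passed the limma test over all features in the fit without a block (adjusted p = 0.0433 and 0.0298). With the replicate number in the fit as a block AT-HF was not called (adjusted p = 0.0870). With the pair of samples as a random block neither gene was called (adjusted p = 0.208 and 0.232), in a fit that called 0.0873% of all features. CBL and APS4 had negative differences and AT2G35390 a positive one, and these 3 did not pass. Over the whole array, 104 of 3438 features, or 3.03%, were called at an adjusted p under 0.05, with 1.83% called lower and 1.19% called higher in recovery. Among genes with a probe of their own the share was 3.04%. The 5 genes were chosen with results of these data known, so their count of 2 calls is a description. In bulk RNA such as this, fewer cells of a type and less RNA per cell cannot be told apart.

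Within a group, sample 1 was most like sample 2, sample 3 like sample 4 and sample 5 like sample 6, with correlations of log2 values of 0.853 to 0.942 inside these pairs and 0.683 to 0.824 across them. Nothing in the labels ties a sample to its own plants, so the p-values rest on a spread that may be partly technical. Column medians of the deposited intensities were 0.426 to 0.458 in recovery 1, 2, 5 and 6 and 0.196 to 0.284 in the other 8 samples, and 4.97% to 11.1% of probes per sample were listed at 0. The number of arrays limits the precision. The labels name no organ. Of 12 green tissue markers listed, LHB1B2, PSAN and PRK had a probe of their own, with control means of 3.95 ± 0.23, 2.80 ± 0.38 and 1.08 ± 0.39 and recovery means of 4.19 ± 0.20, 2.83 ± 0.49 and 0.42 ± 0.13 (log2 normalised intensity, SD, n = 6), and none passed the test. None of the 14 root, flower and seed markers had a probe of its own.

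AT-HF had the larger change of the 2 called genes. Its log2 normalised intensity in control samples was -0.86 at the lowest, -0.27 at the median and 0.13 at the highest, and in recovery samples -3.32, -2.58 and -0.84. The groups overlapped by 1 sample, since recovery 4 lay at -0.84 between control 3 at -0.86 and control 4 at -0.82, and the other 5 recovery samples were below every control. The means were -0.34 ± 0.44 in control and -2.27 ± 1.09 in recovery samples (SD, n = 6), a log2 difference of -1.93 (standard error 0.46, 95% interval -2.93 to -0.94). On the deposited scale the 6 control intensities ran from 0.468 to 1.18 and the 6 recovery intensities from 0.165 to 0.429, so there the groups did not overlap, as was the case for 4.28% of all features on that scale.

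The AT-HF difference was carried by samples 1, 2, 5 and 6. In samples 1 and 2 the recovery plants were lower by a log2 difference of -3.11, which is 8.66-fold, and in samples 5 and 6 by -2.59, which is 6.03-fold. In samples 3 and 4 the difference was -0.10. Recovery 3 and 4 stood at -1.04 and -0.84, above the -2.41 of recovery 5, the next highest, and control 3 and 4 were the lowest of the controls. The difference in samples 3 and 4 lay 2.76 above the mean of that in the other pairs on the log2 scale, with a standard error of 0.39 (limma contrast, adjusted p = 0.00227), and 1.68 above it on the deposited values (adjusted p = 0.00703). Of all features, 28% passed the same contrast on the quantile-normalised values, so such a departure of samples 3 and 4 was common on the array. That share was not counted on the deposited values. There the column medians were 0.197 and 0.196 in recovery 3 and 4 and 0.426 to 0.458 in the other recovery samples. The spread in this contrast is the one within pairs, which makes p too small if those are repeat readings of 1 RNA.

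**Figure D1:**
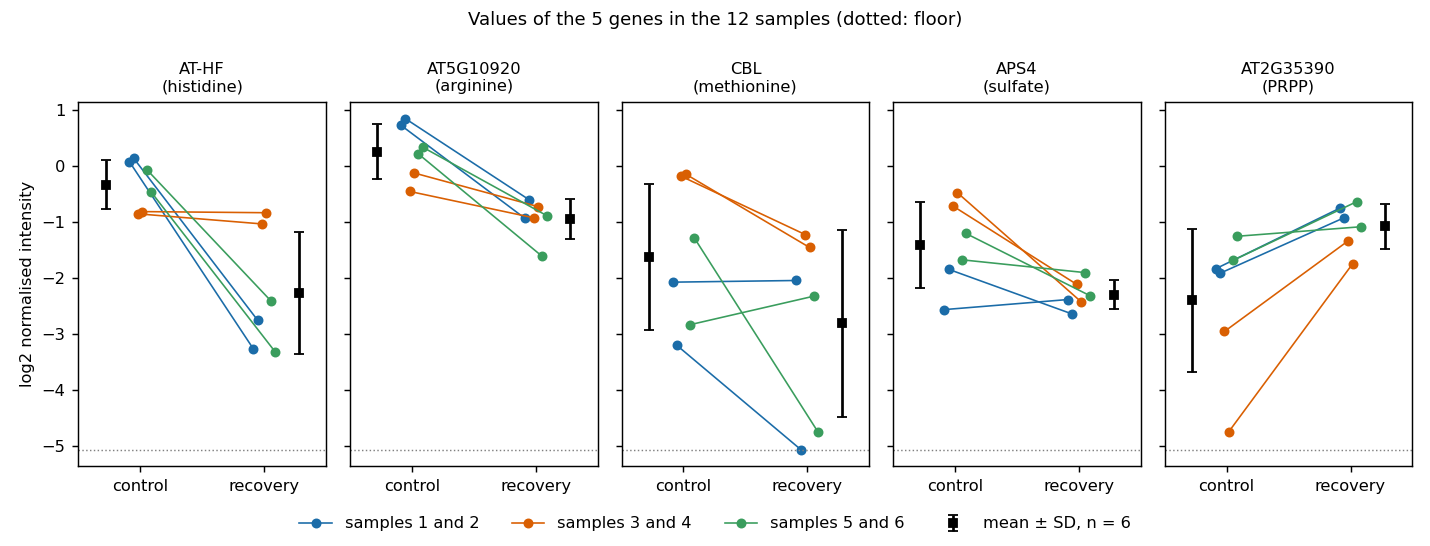
Log2 normalised intensity (vertical axis) of the 5 genes in control and recovery samples, 1 panel per gene, with a line joining the samples of the same replicate number, colours for the pairs of samples, black squares with bars for the mean ± SD of 6 samples and a dotted line at the floor of -5.07. AT-HF lines slope down steeply except in samples 3 and 4, the 6 AT5G10920 recovery values all lie below the controls, and the CBL values are spread from -5.07 to -0.15.

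AT5G10920 had the more even change. Its control values were -0.46 at the lowest, 0.27 at the median and 0.84 at the highest, and its recovery values -1.62, -0.91 and -0.61 on the log2 scale. The groups did not overlap, as was the case for 4.42% of all features. Control samples averaged 0.25 ± 0.50 and recovery samples -0.96 ± 0.35 (SD, n = 6), a log2 difference of -1.21 (standard error 0.26, 95% interval -1.77 to -0.64). Each of the 6 replicate numbers gave a lower value in recovery, with mean differences of -1.56 for samples 1 and 2, -0.53 for samples 3 and 4 and -1.53 for samples 5 and 6. Samples 3 and 4 differed from the other pairs by 1.01 on the log2 scale with a standard error of 0.32, which did not pass (limma contrast, adjusted p = 0.0538) but did after median centring (adjusted p = 0.0218) and with a pseudocount of 0.1 (adjusted p = 0.0356). On the deposited values, where the departure also takes in the scale of the columns, it was 0.16 (limma contrast, adjusted p = 0.685). Column medians there were 0.197 and 0.196 in recovery 3 and 4 and 0.426 to 0.458 in the other recovery samples. No shift over all features was taken off, so the 0.16 does not show that the departure was absent. As deposited, the intensities were 0.652 to 1.85 in control and 0.395 to 0.857 in recovery samples, which overlap.

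Both calls depended on how the samples entered the fit. When replicate number entered as a block (replicate block), 3.08% of all features were called, AT5G10920 among them (adjusted p = 0.0496) and AT-HF not. With the pairs averaged neither was called (adjusted p = 0.753 for both), in a fit that called 0 of 3438 features. Without samples 3 and 4 both were called, AT-HF at -2.66 and AT5G10920 at -1.40 (adjusted p = 0.00228 and 0.0169), in a fit that called 10.5% of all features. Neither was called without samples 1 and 2 (adjusted p = 0.265 and 0.124), in a fit that called 1.54% of all features. Nor was either called without samples 5 and 6 (adjusted p = 0.282 and 0.222), in a fit that called 0.349%. When single samples were left out, the AT-HF call was kept without recovery 3 or recovery 4 and lost without any one of the other 10 samples (adjusted p = 0.0627 to 0.101). The AT5G10920 call was kept without control 3, control 4, recovery 2 or recovery 4 and lost without any one of the other 8 samples (adjusted p = 0.0517 to 0.0671). The differences stayed negative for both genes in all of these fits.

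**Figure D2:**
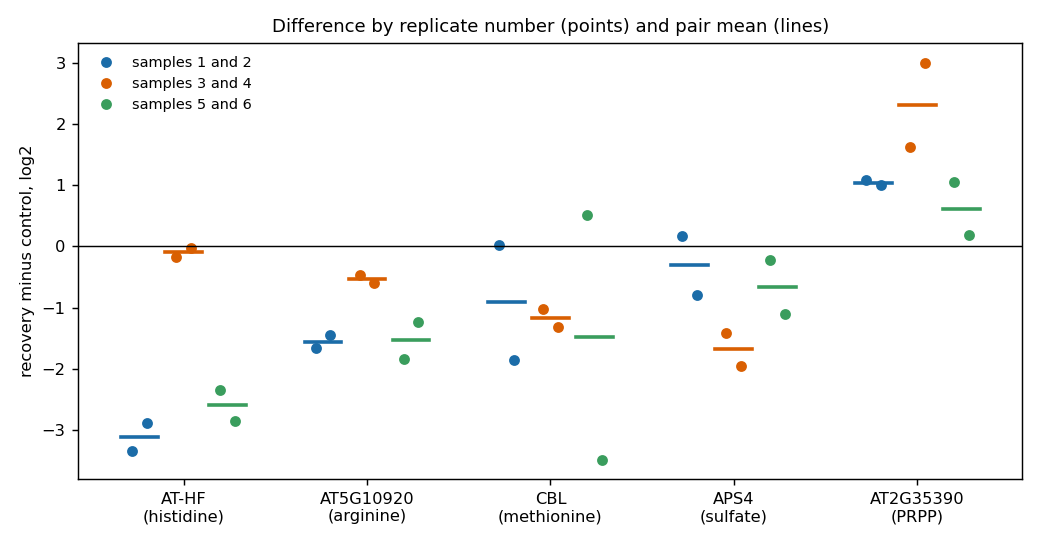
Recovery minus control on the log2 scale (vertical axis) for each of the 5 genes, with a point for each replicate number, a line for the mean of each pair of samples and colours for the pairs. AT-HF lies at -0.10 for samples 3 and 4 and at -3.11 and -2.59 for the other pairs, and AT2G35390 lies above 0 for all 6 numbers.

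The sulfur genes had negative differences that did not pass the test. For APS4, control values were -2.57 at the lowest, -1.45 at the median and -0.48 at the highest, and recovery values -2.65, -2.35 and -1.91 on the log2 scale. The controls were spread widely, with control 3 and 4 the highest and control 1, at -2.57, below 5 of the 6 recovery samples, while the recovery samples lay close together. Means of -1.42 ± 0.77 and -2.30 ± 0.26 (SD, n = 6) differed by -0.89 (standard error 0.33, 95% interval -1.60 to -0.17), with a limma adjusted p of 0.168. With the pair as a random block the unadjusted limma p was 0.0605, so a 95% interval from that fit would hold 0. By pair, APS4 differed by -0.31 for samples 1 and 2, by -1.68 for samples 3 and 4 and by -0.67 for samples 5 and 6. Samples 3 and 4 departed from the other pairs by -1.19 (standard error 0.37, limma contrast, adjusted p = 0.048), in the direction opposite to AT-HF. The same contrast passed for 28% of all features, and its spread is the one within pairs, which may be technical. Without samples 3 and 4 the APS4 difference was -0.47 (adjusted p = 0.379). On the deposited values, where the departure also takes in the scale of the columns, it was -2.66 (limma contrast, adjusted p = 0.0015). The share of all features passing there was not counted. After median centring the departure was -1.64 (limma contrast, adjusted p = 0.0159).

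CBL was the least precisely measured of the 5. Its control values were -3.21 at the lowest, -1.68 at the median and -0.15 at the highest, and its recovery values -5.07, -2.19 and -1.23 on the log2 scale. Recovery 2 was at the floor and recovery 6, at -4.76, was near it. Samples of 1 pair differed by up to 3.02, between recovery 1 and recovery 2, which is more than the 2.48 between the lowest and highest pair means of the controls. The difference was -1.19, its standard error 0.80 and its 95% interval -2.94 to 0.57 (limma, adjusted p = 0.460), an interval that holds both a large decrease and an increase. Without recovery 2 alone the difference was -0.77 (limma, adjusted p = 0.673) and without recovery 6 alone -0.82 (limma, adjusted p = 0.664). With all 12 samples the difference was negative for 4 of 6 replicate numbers and its mean was -0.91 for samples 1 and 2, -1.17 for samples 3 and 4 and -1.48 for samples 5 and 6. Samples 3 and 4 did not depart from the other pairs in a way that could be detected, with a value of 0.03 and a standard error of 1.38 (limma contrast, adjusted p = 0.997).

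The PRPP synthase gene AT2G35390 had the only positive difference of the 5. Control values were -4.75 at the lowest, -1.88 at the median and -1.26 at the highest, and recovery values -1.75, -1.01 and -0.64 on the log2 scale. For all 6 replicate numbers the recovery sample was higher, and 4 of the 6 recovery samples were above every control. Control 4 and control 3 were the lowest controls, at -4.75 and -2.96, and recovery 4 and recovery 3 the lowest recovery samples, at -1.75 and -1.34. Means of -2.41 ± 1.28 and -1.08 ± 0.41 (SD, n = 6) differed by 1.32 (standard error 0.52, 95% interval 0.19 to 2.45), which did not pass over all features (limma, adjusted p = 0.187). With the pair as a random block the unadjusted limma p was 0.0847, so a 95% interval from that fit would hold 0. By pair the difference was 1.04 for samples 1 and 2, 2.31 for samples 3 and 4 and 0.61 for samples 5 and 6. Without samples 3 and 4 it was smaller, 0.76, and less variable, with a standard error of 0.18, and was called (limma, adjusted p = 0.040) in the fit that called 10.5% of all features. Samples 3 and 4 departed from the other pairs by 1.48 with a standard error of 0.64 (limma contrast, adjusted p = 0.128). After median centring they departed by 1.66 (limma contrast, adjusted p = 0.0363). On the deposited values, where the departure also takes in the scale of the columns, it was 0.63 (limma contrast, adjusted p = 0.359). Without control 4 alone the AT2G35390 difference was 0.84 (adjusted p = 0.206).

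Samples 3 and 4 thus stood apart in different ways by gene. In control 3 and 4 the mean log2 values were -0.17 for CBL and -0.60 for APS4, the highest pair means of the controls, and -0.84 for AT-HF, -0.30 for AT5G10920 and -3.85 for AT2G35390, the lowest. In recovery 3 and 4 AT-HF, with -0.94, and CBL, with -1.34, had the highest pair mean of the recovery samples and AT2G35390, with -1.54, the lowest. The recovery 3 and 4 means of AT5G10920, at -0.83, and APS4, at -2.28, lay between those of the other pairs. What sets samples 3 and 4 apart was not tested.

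The scaling of the arrays moved the sizes of the 5 recovery minus control differences but none of their directions. As deposited, the median difference over all features was itself 0.43 on the log2 scale. The differences there were -1.41 for AT-HF, -0.90 for AT5G10920, -0.68 for CBL, -0.39 for APS4 and 1.76 for AT2G35390. Relative to that shift they were -1.84, -1.33, -1.11, -0.82 and 1.33, close to the quantile-normalised values. AT-HF was called on the deposited scale (limma, adjusted p = 0.0408) and AT5G10920 was not (adjusted p = 0.127). Of the array's calls, 41 were higher and 63 lower in recovery after quantile normalisation, 79 and 30 on the deposited scale and 14 and 51 after median centring.

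**Figure D3:**
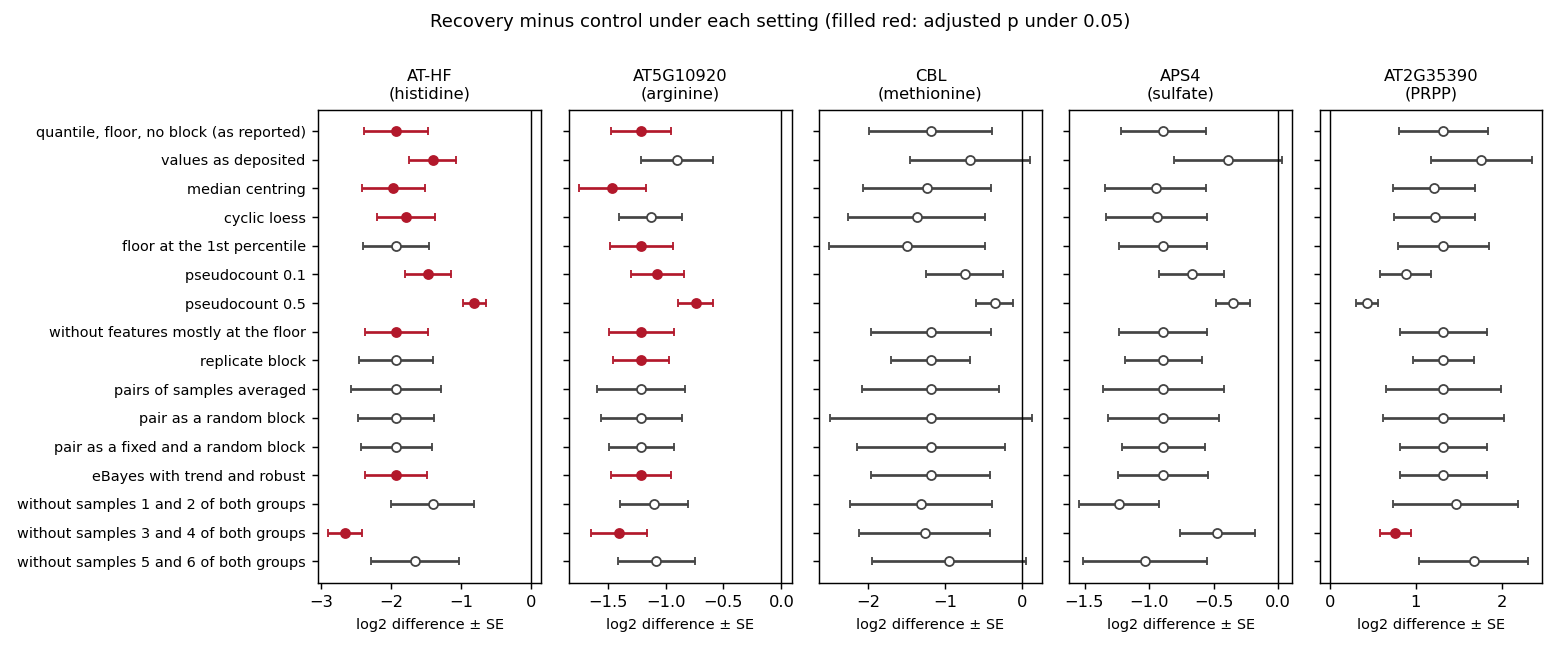
Recovery minus control on the log2 scale ± SE (horizontal axes) for the 5 genes, 1 panel per gene and 1 line per processing setting or set of samples, with filled red points for an adjusted p under 0.05. AT-HF, AT5G10920, CBL and APS4 stay below 0 and AT2G35390 above 0 in all 16 fits drawn, while the AT-HF and AT5G10920 calls come and go.

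Other genes of these pathways were looked up from 8 lists of 200 loci covering histidine, arginine, methionine and aspartate-family, aromatic and branched-chain amino acid synthesis, nitrogen assimilation with glutamate, serine and proline synthesis, sulfate uptake and assimilation, and nucleotide synthesis. Of the 200, 10 had a probe of their own, the 5 genes above and 5 others. None of the 5 others passed the limma test in the reported fit. Over the 10 the median log2 difference was -0.17, with 2 called lower and 0 called higher. Over all 3438 features the median was -0.02, with 1.83% called lower and 1.19% called higher. The 5 genes chosen with results known had a median of -1.19 and the 5 others one of 0.05.

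In nucleotide synthesis, AT2G44530, a second PRPP synthase gene, differed by -0.33 on the log2 scale (standard error 0.41, 95% interval -1.22 to 0.55; limma, adjusted p = 0.705). Its estimate lay on the other side of 0 from that of AT2G35390, but the difference between the 2 genes was not tested. AT1G31220, which encodes the glycinamide ribonucleotide formyltransferase of purine synthesis, differed by 0.18 (standard error 0.21, limma adjusted p = 0.697).

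Branched-chain amino acid synthesis had 2 measured genes. AT3G23940, the dihydroxyacid dehydratase gene, had the highest estimate of the 10 listed genes, 1.78 (standard error 0.58, 95% interval 0.52 to 3.04), and did not pass (limma, adjusted p = 0.125). Like AT2G35390 it was higher in recovery for all 6 replicate numbers and had its lowest controls in samples 3 and 4, at -2.65 and -3.45, against -0.54 to 0.01 in the other controls. For AT3G23940 the pair values were 3.63 (samples 3 and 4), 0.54 (samples 1 and 2) and 1.18 (samples 5 and 6). AT3G58610, the ketol-acid reductoisomerase gene, differed by -0.01 (standard error 0.22, 95% interval -0.48 to 0.47; limma, adjusted p = 0.998). In lysine synthesis, AT3G53580, the diaminopimelate epimerase gene, differed by 0.05 (standard error 0.65, limma adjusted p = 0.981), with 2 of 6 values at the floor in each group and a pair mean of 2.88 in samples 3 and 4 against -0.76 and -1.96 in the others.

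**Figure D4:**
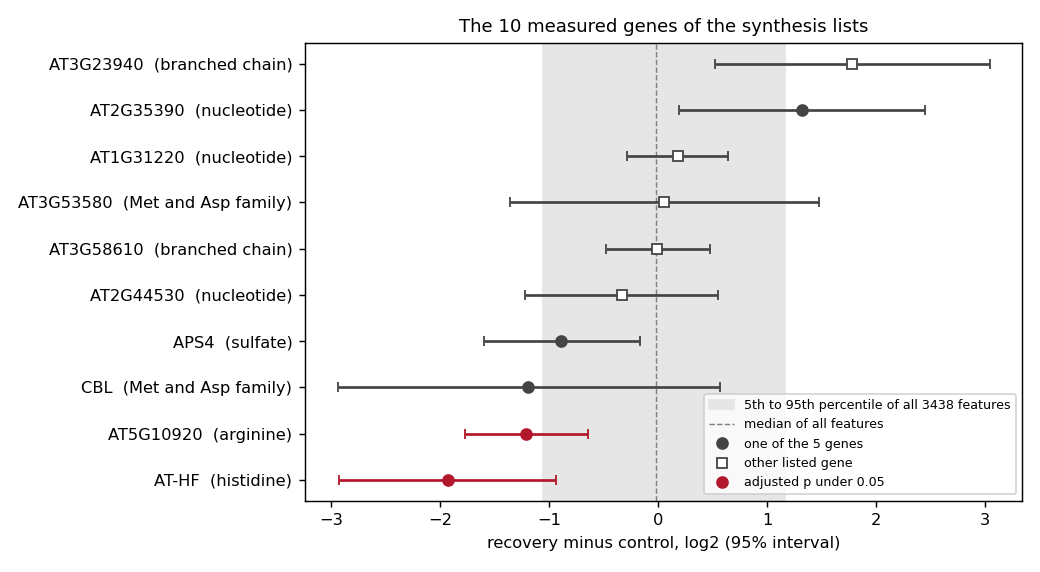
Recovery minus control on the log2 scale with its 95% interval (horizontal axis) for the 10 measured genes of the synthesis lists, circles for the 5 genes and open squares for the 5 others, red for an adjusted p under 0.05, with a grey band for the 5th to 95th percentile and a dashed line for the median of all 3438 features. AT-HF at -1.93 and AT5G10920 at -1.21 are the 2 genes in red, and AT3G23940 at 1.78 and AT2G35390 at 1.32 lie furthest to the right.

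The genes whose log2 values followed each of the 5 most closely were sought among the other genes with a probe of their own, by Pearson correlation over the 12 samples. These samples share the group difference and the pairs, so a high r describes both. AT-HF was closest to AT2G36480 (r = 0.942), which was itself called lower with a log2 difference of -3.03, and to AT1G79480 (r = 0.920). AT5G10920 was closest to CUTA (r = 0.867), called lower at -0.65, and also to AT2G36480 (r = 0.844). CBL was closest to AT3G13120 (r = 0.867) and LpxA (r = 0.864), and APS4 to AT4G20300 (r = 0.940) and AT1G05860 (r = 0.939). AT2G35390 was closest to AT5G46560 (r = 0.921) and AT4G14330 (r = 0.909). The nearest neighbours of CBL, APS4 and AT2G35390 were not called, and neither was AT1G79480.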

How the data were processed

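Per sample, the authors deposited an intensity for each probe on a linear scale from 0 to 100. Neither the array platform's type nor any scanning, background or scaling step is stated in what was used here. Because column medians differed, intensities were quantile-normalised (limma 3.58.1, R 4.3.3), floored at the 5th percentile of positive values (0.0298, or -5.07 on the log2 scale) and logged, which understates differences near the floor. Probes of 1 gene were averaged (3438 features). Gene numbers of 690 of 692 such probes matched the RefSeq table of TAIR10.1, used for symbols. The series names no build, so no positions are given, and no sequence was used here.

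Recovery was compared with control, as titles give them, by limma (lmFit, eBayes, no covariate, two-sided, Benjamini-Hochberg over all features). A second limma fit of group by pair gave the departure of samples 3 and 4. Both were tested on simulated data. The genes, lists and contrast were chosen with earlier results of these data known, and the lists were written from memory. Named are the 5 genes, each measured gene of the lists and, for each of the 5, the 2 most correlated genes. Alternatives were other scalings, floors, pseudocounts, blocks and left-out samples.

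The numbers that end the titles were taken to pair the samples, since deviations from group means correlated across groups at 0.110 to 0.462 for equal numbers, at 0.081 to 0.168 for the other number of the same pair and at -0.229 to 0.008 for other pairs. The ranges for number and pair overlap, so the pair may be the unit. An exact permutation test of 3 pairs against 3, not matched across groups, cannot give p below 0.1. Matched by number, the pairs allow fewer arrangements, so the lowest possible p is higher.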

Additional observations from a re-analysis of the deposited data

Results flagged for a closer look

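For AT5G10920, recovery 5 lay below the other recovery samples, at -1.62 against -0.94 to -0.61 on the log2 scale. Its gap to the nearest sample was 0.673 of the group's range, past Dixon's 95% critical value for 6 samples. This was the 1 flag among 20 groups of 6 searched for the 10 listed genes, and chance flags about 1 in 20. Without recovery 5 the AT5G10920 difference was -1.10 and was not called (limma, adjusted p = 0.0671).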

How the results depend on the processing

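Over 12 other planned settings, the log2 difference ran from -1.97 to -0.81 for AT-HF, -1.46 to -0.74 for AT5G10920, -1.50 to -0.36 for CBL, -0.95 to -0.35 for APS4 and 0.43 to 1.76 for AT2G35390, with no change of direction. The AT-HF call was lost at -1.93 with a floor at the 1st percentile, the replicate block, averaged pairs and the pair as a random or a fixed and random block (adjusted p = 0.0576, 0.0870, 0.753, 0.208 and 0.0777). The AT5G10920 call was lost at -0.90 on the deposited values and -1.13 with cyclic loess, and at -1.21 with averaged pairs and the pair as a random or a fixed and random block (adjusted p = 0.127, 0.0569, 0.753, 0.232 and 0.0588). With a pair of samples left out the difference ran from -2.66 to -1.41 for AT-HF, -1.40 to -1.08 for AT5G10920 and 0.76 to 1.67 for AT2G35390. With 1 sample left out, an alternative added after seeing the data, it ran from -2.19 to -1.76 for AT-HF and -1.33 to -1.08 for AT5G10920, -1.51 to -0.77 for CBL (lowest in size without recovery 2), -1.11 to -0.69 for APS4 and 0.84 to 1.53 for AT2G35390 (lowest without control 4). Listed genes called, 2 in the reported fit, were 1 on deposited values, with cyclic loess, the lower floor and the replicate block. They were 3 with a pseudocount of 0.5, where AT3G23940, with a positive difference in the reported fit, was called as well. With averaged pairs or either random block they were 0. They ran from 0 to 3 with a pair left out and from 0 to 2 with 1 sample left out. All features called, 104 as reported, were 65 after median centring, 60 with cyclic loess, 71 with the lower floor, 167 with a pseudocount of 0.5, 69 without features mostly at the floor, 0 with averaged pairs (limma, 203 at an unadjusted p under 0.05) and 3 with the random block. They ran from 12 to 362 with a pair left out and from 42 to 91 with 1 sample left out. The departure of samples 3 and 4 was called for AT5G10920 after median centring (1.19) and with a pseudocount of 0.1 (0.90) and for AT2G35390 after median centring (1.66), and not on deposited values (0.16 and 0.63, adjusted p = 0.685 and 0.359). There it was 1.68 for AT-HF and -2.66 for APS4, both called. For CBL, where it was not called, it reversed to -1.38 on deposited values, -0.35 after median centring and -0.37 with the pseudocount. On deposited values this departure also takes in the scale of the columns. Their medians were 0.197 and 0.196 in recovery 3 and 4 and 0.426 to 0.458 in the other recovery samples. No shift over all features was taken off there. Except where construction shows it (fewer samples or features), the cause was not tested. The replicate block changed no other call of the listed genes.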
